A study of Mus musculus with 8 samples.

Results

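The 10 genes described here are the effectors of Notch signalling Hes1, Hes5, Hes6, Hey1, Hey2, Heyl and Nrarp and the Fringe genes Lfng, Mfng and Rfng. They were taken by symbol from the 23997 gene symbols of each library, and all 10 were found. RNA-seq was done on NS/PCs, primary cultures of neural stem and precursor cells, which divide and give rise to neurons and glia, from the telencephalon of E11.5 embryos of ICR mice (the stage label gives E11). The cells of 3 libraries are labelled Nfia-transduced and were given Nfia, which encodes a DNA-binding protein of the NFI (nuclear factor I) family, and those of 3 more libraries are labelled control. All grew attached to coated dishes with basic fibroblast growth factor at 10 ng/mL, and RNA was taken 3 days after transduction. The labels do not say what the control cells received, how many cells took up Nfia or whether a group's libraries were separate cultures, so the p-values speak only of library-to-library spread, possibly technical. The series asked which genes Nfia acts on in these cells.

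Notch is a receptor on the cell surface that is activated by ligands on a neighbouring cell. Activation cuts the receptor, and its inner part moves to the nucleus, joins the DNA-binding protein RBPJ and switches on genes of the HES and HEY families and Nrarp. HES and HEY proteins are basic helix-loop-helix repressors that hold back the proneural genes, so precursors with active Notch stay precursors, and Nrarp feeds back on the receptor complex and limits it. The Fringe enzymes act further upstream, in the Golgi, where they lengthen sugar chains on the receptor and so change which ligands it answers to.

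Levels are in FPKM, which corrects fragment numbers for transcript length and library size, so that different genes can be set side by side. Totals lay between 474010 and 511700 FPKM per library, and depth, judged from the steps between low values, lay between 0.761 and 1.11 of that of control 1. The absolute depth is unknown, so no counting intervals are given. Nfia itself was 69.0, 85.6 and 103.5 FPKM in the Nfia libraries, against 19.8, 23.9 and 22.2 FPKM in the control libraries. Markers of neural precursors such as Sox2 (238 FPKM with Nfia and 229 FPKM in control), Vim (2443 FPKM with Nfia and 1888 FPKM in control) and Fabp7 (2957 FPKM with Nfia and 3426 FPKM in control) were high in both groups, as the cells are labelled. Of 11 precursor markers, 3 were called higher and 5 lower, Hes5 among the lower, and their sum was 5590 to 6675 FPKM in Nfia libraries and 5694 to 6182 FPKM in control libraries. Summed over 16 neuron markers, the level was 1067 to 1106 FPKM in Nfia libraries and 1723 to 1869 FPKM in control libraries, with 13 of the 16 called lower and 1 higher. Sums of 9 endothelial and mural markers were 11.3 to 18.1 FPKM in Nfia libraries and 16.6 to 22.1 FPKM in control libraries, with 2 of 4 tested called lower. The sum of 6 astrocyte markers was 186 to 198 FPKM in Nfia libraries and 129 to 149 FPKM in control libraries, with 1 of 3 tested called higher, Aldoc, and 2 lower, Gfap and Aldh1l1. Aldoc, at 179 FPKM with Nfia and 116 FPKM in control, made up most of that sum. Gfap and Aldh1l1, and Aqp4, S100b and Gjb6 below the filter, each had every Nfia library below every control library. The sum of 9 markers of the oligodendrocyte lineage was 31.4 to 34.3 FPKM in Nfia libraries and 38.4 to 39.6 FPKM in control libraries, with 2 of 6 tested called lower, Pdgfra and Mbp. Olig1, a factor of that lineage outside the list, was called higher, at 690 FPKM with Nfia and 227 FPKM in control. The sum of 7 mesenchyme markers was 5.08 to 17.3 FPKM in Nfia libraries and 5.53 to 15.1 FPKM in control libraries, lowest in replicate 1 of each group. The 5 tested had adjusted p-values of 0.544 to 0.980 in limma. The part of these cell types in the results was not tested. None of the 9 markers of microglia and blood reached the filter on low values, and no marker was at 0 in every library.

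Of the 10 genes, 8 averaged 1 FPKM or more and were tested with limma on log2(FPKM + 1), with Benjamini-Hochberg adjustment over all 12537 genes tested and a threshold of 0.05. Lfng and Hes1 were higher with Nfia, and Mfng, Hes5, Nrarp and Hey1 were lower. That is 2 of 8 higher, where 16.1% of all tested genes were higher, and 4 of 8 lower, where 15.1% of all tested genes were lower. In 6 of the 8 the Nfia libraries lay all above or all below the control libraries, as they did in 47.7% of all tested genes. The median log2 difference of the 8 was -0.18, beside 0.01 for all tested genes, and the single differences ran from -1.15 for Mfng to 1.01 for Lfng. Hes6 and Rfng did not pass the test, and Hey2 and Heyl were below the filter. Log2 differences below subtract control from Nfia after log2(FPKM + 1), fold values are ratios of mean FPKM, and positions are gene spans of RefSeq on GRCm38.p6.

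**Figure D1:**
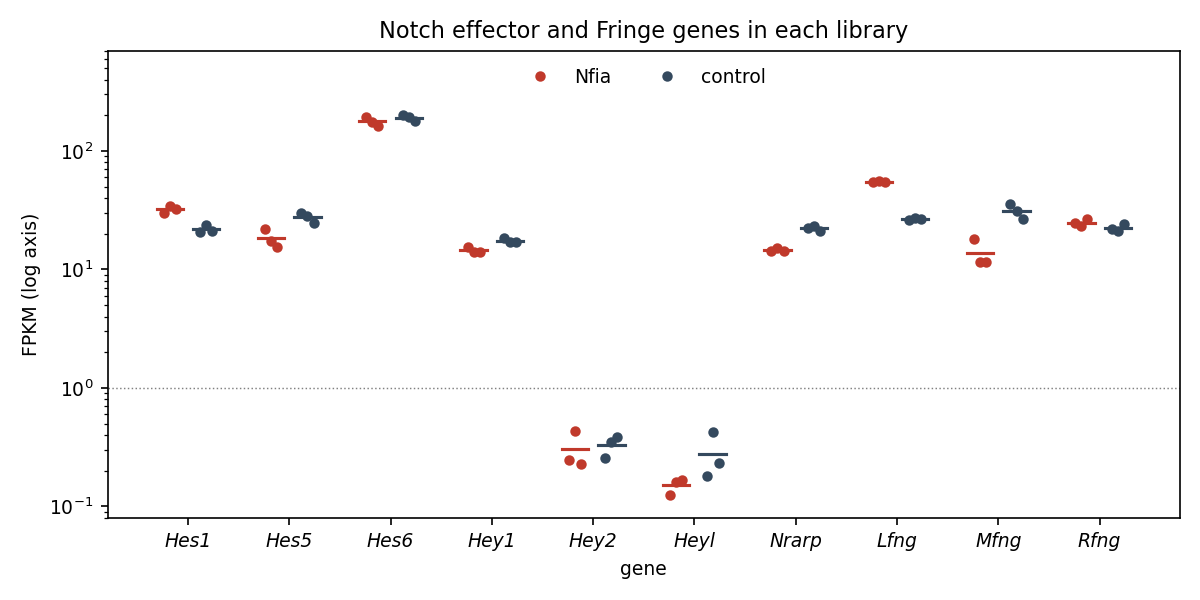
FPKM (log axis) of each of the 10 genes in the 3 Nfia libraries (red) and the 3 control libraries (dark blue), with lines at the group means and a dotted line at 1 FPKM, the mean a gene needed to be tested. The groups are apart for Hes1, Hes5, Hey1, Nrarp, Lfng and Mfng, overlap for Hes6 and Rfng, and Hey2 and Heyl lie below 1 FPKM.

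To show the DNA next to which the changed genes start, the 250 bases before the RefSeq start are given for Lfng, which rose, and for Nrarp and Hes5, which fell. They are 5′ to 3′ on the strand of the gene, from RefSeq on GRCm38.p6, and capitals mark the core of the RBPJ motif, TGGGAA, on either strand. Lfng starts after chr5:140607091-140607340, Nrarp after chr2:25180508-25180757 and Hes5 after chr4:154960673-154960922, all on the plus strand. The Hes5 stretch lies inside the gene span given below, which begins further upstream than the start in the table.
Lfng: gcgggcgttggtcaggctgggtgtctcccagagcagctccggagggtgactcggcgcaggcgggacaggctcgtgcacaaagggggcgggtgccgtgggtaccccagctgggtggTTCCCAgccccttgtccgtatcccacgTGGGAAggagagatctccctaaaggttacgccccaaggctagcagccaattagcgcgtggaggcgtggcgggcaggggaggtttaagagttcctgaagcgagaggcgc
Nrarp: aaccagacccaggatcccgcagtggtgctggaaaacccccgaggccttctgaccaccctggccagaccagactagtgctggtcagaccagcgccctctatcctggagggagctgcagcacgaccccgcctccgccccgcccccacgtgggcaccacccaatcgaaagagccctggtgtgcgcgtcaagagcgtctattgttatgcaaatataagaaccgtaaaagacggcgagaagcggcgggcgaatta
Hes5: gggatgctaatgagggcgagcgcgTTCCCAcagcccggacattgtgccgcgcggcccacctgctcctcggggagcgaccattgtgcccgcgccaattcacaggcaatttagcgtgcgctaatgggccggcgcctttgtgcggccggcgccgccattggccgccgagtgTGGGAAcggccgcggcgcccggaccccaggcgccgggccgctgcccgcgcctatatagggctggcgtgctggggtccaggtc

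The Lfng and Hes5 stretches each held 2 cores and the Nrarp stretch 0. Of all 32851 RefSeq windows of the same length, 21.6% held at least 1. In Lfng the cores lay 135 to 130 and 108 to 103 bases before the start, the first on the opposite strand, and the second overlaps an E box. In Hes5 they lay 226 to 221 bases before the start, on the opposite strand, and 82 to 77 bases before it. Sequences of 6 of the 10 genes were in the table, 7 windows in all, since Hes6 has 2. The single-arm NFI site TTGGC, found in 41.5% of all windows, occurred 1 time in Lfng, 2 times in Hes5 and 0 times in Nrarp, and the full palindromic NFI site occurred in none of the 7 windows and in 0.0365% of all windows. The N box CACNAG, a site of HES proteins found in 36.7% of all windows, occurred 2 times in Nrarp, 1 time in Lfng and 0 times in Hes5. The E box CANNTG, found in 66.2% of all windows, occurred 2 times in Lfng and 1 time each in Nrarp and Hes5. A match is only a match of letters, and binding in the Flag ChIP sample was not analysed here.

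**Figure D2:**
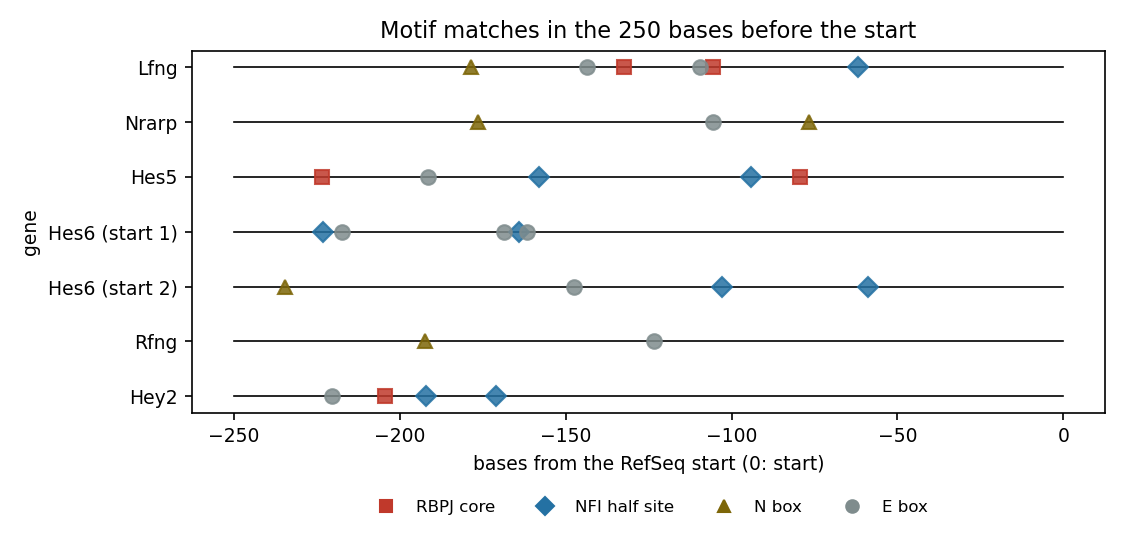
Motif matches in the 250 bases before the start of 6 genes, with the distance from the start in bases on the x axis and 1 line per RefSeq start. The 2 RBPJ cores of Lfng and of Hes5 are the red squares; the other red square is the 1 core of Hey2.

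The Fringe genes moved apart. Lfng (lunatic fringe, chromosome 5 from 140607341 to 140615545), the Fringe best known from the rhythmic segmentation of the embryo, was 54.5, 55.2 and 54.5 FPKM in Nfia libraries and 26.2, 27.3 and 26.8 FPKM in control libraries. The libraries of a group were nearly alike and the groups were far apart. Lfng averaged 54.8 ± 0.400 FPKM with Nfia and 26.7 ± 0.559 FPKM in control (SD, n = 3 each), 2.05-fold higher with Nfia (log2 difference 1.01, SE 0.04, adjusted p = 9.12e-05). It ranked 4 of the 12537 genes by p.

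Mfng (manic fringe, chromosome 15 from 78755882 to 78773516), an enzyme of the same activity, was 18.0, 11.4 and 11.6 FPKM in Nfia libraries, against 35.6, 31.3 and 26.6 FPKM in control libraries. Every Nfia library lay below every control library, and Nfia 1 lay above the other 2 of its group. Mfng fell to 13.7 ± 3.72 FPKM with Nfia, against 31.2 ± 4.49 FPKM in control, a ratio of 0.438 (log2 difference -1.15, SE 0.18, adjusted p = 0.00471). Its spread was the widest of the tested genes described here, with an SD of 27.2% of the mean in Nfia libraries and 14.4% in control libraries, where Lfng had 0.731% in Nfia libraries and 2.09% in control libraries.

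Rfng (radical fringe, chromosome 11 from 120780745 to 120784251), the third enzyme of the family, was 24.5, 23.2 and 26.4 FPKM in Nfia libraries and 22.1, 20.9 and 23.9 FPKM in control libraries. The groups overlapped. The log2 difference was 0.14 with a 95% interval of -0.02 to 0.30, and it did not pass the test (adjusted p = 0.157). It passed in 1 of the 16 alternatives, the limma fit with a replicate block (adjusted p = 0.0474). The interval leaves out a change as large as that of Lfng or Mfng.

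Within a library, where scaling between libraries plays nearly no part, the log2 ratio of Lfng over Mfng (FPKM + 1) was 1.55, 2.18 and 2.14 in Nfia libraries and -0.43, -0.19 and 0.01 in control libraries. The difference was 2.16, and the groups did not overlap (exact permutation test, two-sided, p = 0.1, which is the smallest that 3 against 3 libraries allow). Lfng over Rfng was higher with Nfia by 0.87 and Mfng over Rfng lower, with a difference of -1.29, each with groups that did not overlap and the same exact p = 0.1. All 6 ratios computed had an exact permutation p = 0.1, also after Benjamini-Hochberg adjustment, and no ratio could pass 0.05 with so few libraries. The sum of the 3 Fringe genes was 93.1 ± 3.60 FPKM with Nfia and 80.2 ± 3.29 FPKM in control (SD, n = 3 each). Of that sum, Lfng held 58.9% ± 2.61 with Nfia and 33.4% ± 1.91 in control. Mfng held 14.6% ± 3.40 with Nfia and 38.7% ± 4.07 in control. The share of Rfng was 26.5% ± 1.75 with Nfia and 27.9% ± 2.64 in control, with groups that overlapped. These shares were computed after the values were seen and carry no test.

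**Figure D3:**
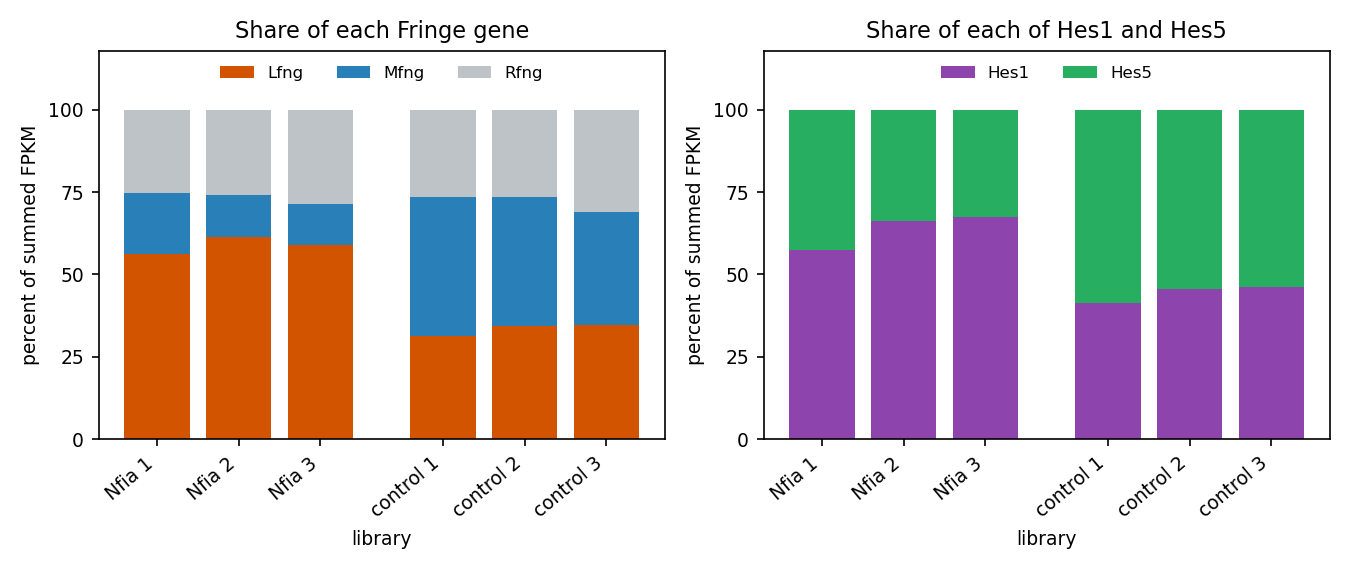
Share in percent of the summed FPKM of the 3 Fringe genes (left) and of Hes1 and Hes5 (right) in each of the 3 Nfia and 3 control libraries. The Lfng part is 56.2% to 61.4% in Nfia libraries and 31.2% to 34.7% in control libraries, and the Hes1 part is 57.6% to 67.6% in Nfia libraries and 41.3% to 46.3% in control libraries.

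Hes1 and Hes5 are the HES repressors that maintain neural precursors, and they went opposite ways. Hes1 (chromosome 16 from 30065357 to 30067796), which can act on its own promoter, was 29.7, 34.3 and 32.2 FPKM in Nfia libraries, against 20.8, 23.7 and 21.1 FPKM in control libraries. All Nfia libraries were above all control libraries. Hes1 averaged 32.1 ± 2.32 FPKM with Nfia and 21.9 ± 1.55 FPKM in control (SD, n = 3 each), 1.47-fold higher (log2 difference 0.53, SE 0.07, adjusted p = 0.00265).

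Hes5 (chromosome 4 from 154960626 to 154962372), often used as a readout of Notch activity in the embryonic brain, was 21.9, 17.5 and 15.4 FPKM in Nfia libraries, against 29.6, 28.3 and 24.5 FPKM in control libraries. The groups did not overlap, with Nfia 1 closest to the controls. Hes5 fell to 18.3 ± 3.29 FPKM with Nfia, against 27.5 ± 2.67 FPKM in control, a ratio of 0.665 (log2 difference -0.57, SE 0.13, adjusted p = 0.0163). Its call ended without Nfia 2, control 1 or control 2 (adjusted p = 0.065, 0.063 and 0.059), while the log2 difference stayed between -0.70 and -0.46 over the alternatives tried. Nfia 1 was also the library with the lowest Nfia level of its group and the greatest relative depth, 1.11. Control 1 likewise had the lowest Nfia level, the greatest depth and the highest Hes5 and Mfng of its group (29.6 and 35.6 FPKM). Whether Nfia level, depth or anything shared by replicate number has a part in these Hes5 and Mfng values was not tested.

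The log2 ratio of Hes5 over Hes1 was -0.42, -0.93 and -1.01 in Nfia libraries and 0.49, 0.25 and 0.20 in control libraries. Hes5 was thus the higher of the pair in every control library and Hes1 in every Nfia library. The difference of -1.10 had groups that did not overlap (exact permutation test, two-sided, p = 0.1, the smallest possible). The sum of the pair was 50.3 ± 2.33 FPKM with Nfia and 49.3 ± 3.32 FPKM in control (SD, n = 3 each), so the groups overlapped in the sum although both members had moved. Hes1 made up 63.8% ± 5.44 of it with Nfia and 44.4% ± 2.70 in control.

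Hes6 (chromosome 1 from 91411483 to 91414038) encodes a HES protein that works against Hes1 and favours neuron formation, and it is not switched on by Notch in the way of the others. It was by far the most abundant of the 10, at 194, 175 and 163 FPKM in Nfia libraries and 200.1, 193 and 178 FPKM in control libraries. The groups overlapped, and the log2 difference of -0.10, with a 95% interval of -0.29 to 0.08, did not pass the test (adjusted p = 0.347). Hes6 made up 73.0% ± 1.03 of the summed FPKM of the 6 HES and HEY genes with Nfia and 73.8% ± 0.391 in control. Relative to Hes1 it was lower with Nfia (difference of log2 ratios -0.63) and relative to Hes5 higher (0.47), both with groups that did not overlap and an exact permutation p = 0.1. In bulk RNA, fewer cells of a type and less RNA per cell cannot be told apart, which bears on Hes6 and on the precursor genes alike, since the neuron markers were lower in the same libraries. The part of that in these differences was not tested.

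Hey1 (chromosome 3 from 8663359 to 8667038), a repressor related to the HES proteins and likewise a Notch target, was 15.5, 14.0 and 14.1 FPKM in Nfia libraries, against 18.5, 17.0 and 17.0 FPKM in control libraries. The groups did not overlap, but the gap was small. Hey1 fell to 14.5 ± 0.874 FPKM with Nfia, against 17.5 ± 0.907 FPKM in control, a ratio of 0.831 (log2 difference -0.25, SE 0.06, adjusted p = 0.0201). The call ended without Nfia 2, Nfia 3 or control 1 (adjusted p = 0.077, 0.0655 and 0.0636).

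The other HEY genes were barely detected. Hey2 (chromosome 10 from 30832359 to 30842783) was 0.244, 0.436 and 0.230 FPKM in Nfia libraries and 0.254, 0.3505 and 0.383 FPKM in control libraries. Heyl (chromosome 4 from 123233556 to 123249870) was 0.1235, 0.1595 and 0.1685 FPKM in Nfia libraries and 0.179, 0.424 and 0.234 FPKM in control libraries. Hey2 overlapped between the groups, and the Heyl values of the Nfia group were all below those of the control group. With no filter on low values the log2 differences were -0.03 for Hey2 (adjusted p = 0.811) and -0.15 for Heyl (adjusted p = 0.22), and neither passed.

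Nrarp (Notch-regulated ankyrin repeat protein, chromosome 2 from 25180758 to 25183339), the feedback inhibitor, was 14.4, 15.1 and 14.4 FPKM in Nfia libraries, against 22.4, 23.3 and 21.2 FPKM in control libraries. The libraries of each group were close together and the groups well apart. Nrarp fell to 14.6 ± 0.366 FPKM with Nfia, against 22.3 ± 1.04 FPKM in control, a ratio of 0.656 (log2 difference -0.58, SE 0.05, adjusted p = 0.000541). Like the decrease of Mfng and the increases of Lfng and Hes1, this call held under all 16 alternatives, among them each of the 6 libraries left out.

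**Figure D4:**
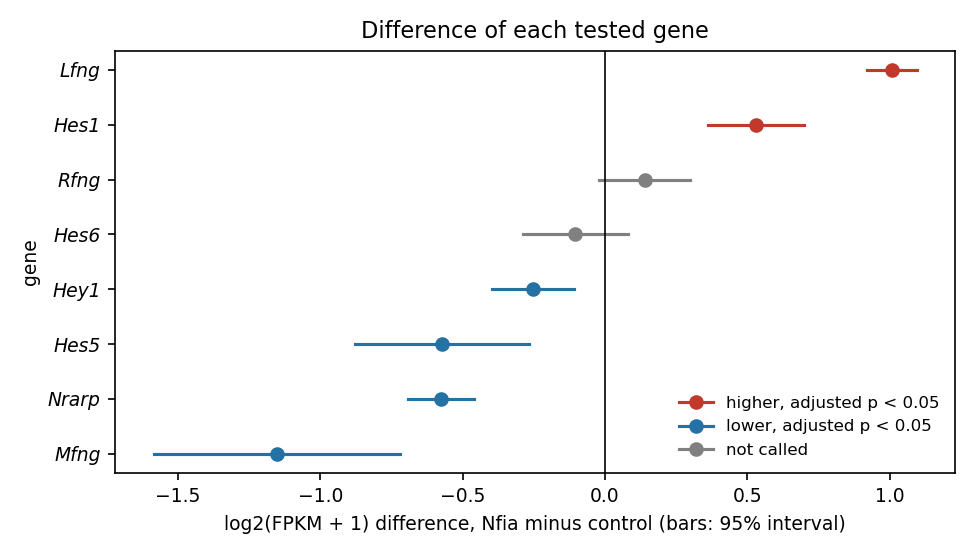
Difference in log2(FPKM + 1), Nfia minus control, of the 8 tested genes, with bars for the 95% interval from limma. Lfng at 1.01 and Hes1 at 0.53 are higher, Hey1, Hes5, Nrarp and Mfng are lower, from -0.25 to -1.15, and the intervals of Rfng and Hes6 include 0.

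The order of the levels also differed between the groups. With Nfia it was Hes6, Lfng, Hes1, Rfng, Hes5, Nrarp, Hey1, Mfng, Hey2 and Heyl, and the neighbours whose ranges overlapped were Nrarp with Hey1 and Hey1 with Mfng. In control it was Hes6, Mfng, Hes5, Lfng, Rfng, Nrarp, Hes1, Hey1, Hey2 and Heyl, and the overlapping neighbours were Mfng with Hes5, Hes5 with Lfng, Rfng with Nrarp, Nrarp with Hes1, and Hey2 with Heyl. Lfng was thus 2 in order with Nfia and 4 in control, Mfng 8 with Nfia and 2 in control, and Hes1 3 with Nfia and 7 in control.

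The genes with the pattern over the 6 libraries most like Lfng, by the Euclidean distance between centred log2(FPKM + 1) values, were Slc27a3, of the fatty acid transport protein family (distance 0.0939, 11.2 ± 0.320 FPKM with Nfia and 5.24 ± 0.289 FPKM in control), Slc9a3r1, a membrane scaffold protein (0.098), and Igfbp3, an insulin-like growth factor binding protein (0.106). Those most like Nrarp were Dlk1, a ligand-like relative of the Notch ligands (0.0707, 0.936 ± 0.0514 FPKM with Nfia and 1.95 ± 0.0750 FPKM in control), Rnd2, a small GTPase (0.0739), and Tfap2c, a transcription factor (0.0866). Dlk1 and Tfap2c (0.696 ± 0.0534 FPKM with Nfia and 1.45 ± 0.181 FPKM in control) lie near 1 FPKM, where adding 1 before the log2 shrinks a difference. The ratio of mean FPKM was 0.480 for Dlk1 and 0.656 for Nrarp, so their likeness depends in part on the added 1. The distances run over 6 libraries in 2 groups and are given as a description.

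Upstream of the effectors, of 10 tested receptor and ligand genes, 3 were higher and 2 lower, with a median log2 difference of 0.08 beside 0.01 for all genes tested. Here and in the lists below, counts of called genes stand beside 16.1% of all tested genes higher and 15.1% lower. Dll4, a ligand, was 3.42 ± 0.517 FPKM with Nfia and 0.652 ± 0.0777 FPKM in control (SD, n = 3 each; log2 difference 1.42, adjusted p = 0.000506). The receptor gene Notch1 was 35.9 ± 4.04 FPKM with Nfia and 17.3 ± 1.73 FPKM in control (log2 difference 1.01), and Jag1, another ligand, had a log2 difference of 0.56. Of the other receptor genes, Notch2 (0.21, adjusted p = 0.232) and Notch3 (-0.04, adjusted p = 0.808) did not pass the test, and Notch4 was below the filter. Dlk1 (-0.61) and Dll3 (-0.53), a Delta protein that acts inside the cell, fell, and the call of Dll3 ended without Nfia 2, Nfia 3, control 1 or control 2 (adjusted p = 0.0556 to 0.0638).

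Among 9 other enzymes that put sugars on the receptor, 4 were higher and 0 lower, with a median log2 difference of 0.15. The xylosyltransferase gene Gxylt1 was 11.3 ± 0.352 FPKM with Nfia and 8.55 ± 0.660 FPKM in control (log2 difference 0.37), and Xxylt1, which extends that chain, had a log2 difference of 0.36. Eogt, which adds single N-acetylglucosamines, had 0.56, and Kdelc1 (also called Poglut2), an O-glucosyltransferase, 0.27. Pofut1, which adds the fucose that the Fringes lengthen, was 10.1 ± 0.517 FPKM with Nfia and 9.13 ± 0.697 FPKM in control and did not pass the test. The call of Xxylt1 ended without Nfia 2, Nfia 3 or control 1 (adjusted p = 0.0532 to 0.0583). Of the 10 genes of receptor cleavage, 1 was higher and 0 lower, Adam17 (log2 difference 0.22), and its call ended without Nfia 2, Nfia 3, control 1 or control 3 (adjusted p = 0.0569 to 0.0686).

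In the nuclear complex, 17 genes were tested, with a median log2 difference of 0.02. Rbpj, the DNA-binding partner of the receptor, was 17.8 ± 1.14 FPKM with Nfia and 20.7 ± 0.418 FPKM in control (log2 difference -0.21, adjusted p = 0.0271). This call ended without Nfia 2, Nfia 3, control 1, control 2 or control 3 (adjusted p = 0.0676 to 0.0955). The Mastermind coactivator genes Maml2 and Maml3 had log2 differences of 0.49 and -0.51, and the acetyltransferase gene Kat2a had 0.24, a call lost when control 1 or control 3 was left out (adjusted p = 0.0573 and 0.0566). Of 5 tested genes of the Groucho corepressors, which bind the end of HES proteins, 2 were higher and 2 lower, with a median log2 difference of 0.14. Tle3 (0.31) and Tle6 (0.52) rose, and Tle1 (-0.56) and Tle4 (-0.22) fell, and the call of Tle4 ended without Nfia 2 or control 1 (adjusted p = 0.059 and 0.0522).

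Of 21 genes of trafficking and turnover, 4 were higher and 5 lower, with a median log2 difference of -0.01. Among all tested genes, 16.1% were higher and 15.1% lower. Epn2, an endocytic adaptor, was 56.6 ± 2.04 FPKM with Nfia and 30.4 ± 0.584 FPKM in control (SD, n = 3 each; log2 difference 0.88, adjusted p = 0.000146). Numbl, which like Numb restrains the receptor, fell by 0.45 on the log2 scale, and the ubiquitin ligase genes Dtx3, Nedd4l, Dtx1 and Mib1 had -0.41, -0.27, -0.26 and -0.23. Neurl1b (0.42), Dtx4 (0.24) and Numb (0.24) were higher. Of these, the calls of Epn2, Numbl, Dtx3 and Nedd4l held under all 16 alternatives. The call of Mib1 ended without Nfia 1, Nfia 2, control 1 or control 2 (adjusted p up to 0.0629). That of Dtx1 ended without any library but Nfia 3 (up to 0.112) and that of Dtx4 without any but control 3 (up to 0.082). That of Neurl1b ended without any but Nfia 1 (up to 0.128) and that of Numb without any 1 of the 6 (up to 0.133). With no filter on low values the calls of Numb, Neurl1b and Dtx1 also ended (0.0773, 0.0696 and 0.0641). Under upper-quartile scaling those of Numb, Neurl1b and Dtx4 ended (0.0827, 0.0589 and 0.0521). That of Numb ended too with median-of-ratios scaling, no variance trend or library quality weights (0.0546, 0.0534 and 0.0845). The count of higher genes was 1 without Nfia 2, Nfia 3, control 1 or control 2 and under upper-quartile scaling, and 2 without Nfia 1 or control 3 and with no filter on low values. The count of lower genes was 3 without Nfia 1, Nfia 2, control 1 or control 2.

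Downstream, 6 proneural genes, which HES and HEY proteins are known to repress, were tested, with a median log2 difference of -0.10. Neurog2, the proneural gene of dorsal precursors, was 3.50 ± 0.484 FPKM with Nfia and 6.45 ± 0.380 FPKM in control (SD, n = 3 each; log2 difference -0.73, adjusted p = 0.00234). Of 6 other HES-type genes only Bhlhe40 passed the filter, and it was higher (log2 difference 0.35).

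Of 16 tested genes that have been linked to Notch as possible targets in various tissues, 6 were higher and 3 lower, with a median log2 difference of 0.14. The list holds Nfia, the transduced gene itself. Besides it, the smallest adjusted p belonged to Olig1, a factor of the oligodendrocyte lineage (log2 difference 1.60), the cyclin gene Ccnd1 (0.88) and Myc (0.68). Sox9 (-0.22), Gfap (-0.51) and Dtx1 (-0.26) were lower, a count that was 1 without Nfia 1, Nfia 2 or control 1 and 0 without control 2 or control 3. The call of Sox9 ended without any 1 library but control 1 (adjusted p = 0.0565 to 0.107). It also ended with no filter on low values (0.0525), with no variance trend (0.052) and with the replicate block (0.0531). The call of Gfap ended without any 1 of the 3 control libraries (0.0506 to 0.0856). That of Dtx1 ended without any library but Nfia 3 (0.0621 to 0.112) and with no filter on low values (0.0641).

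**Figure D5:**
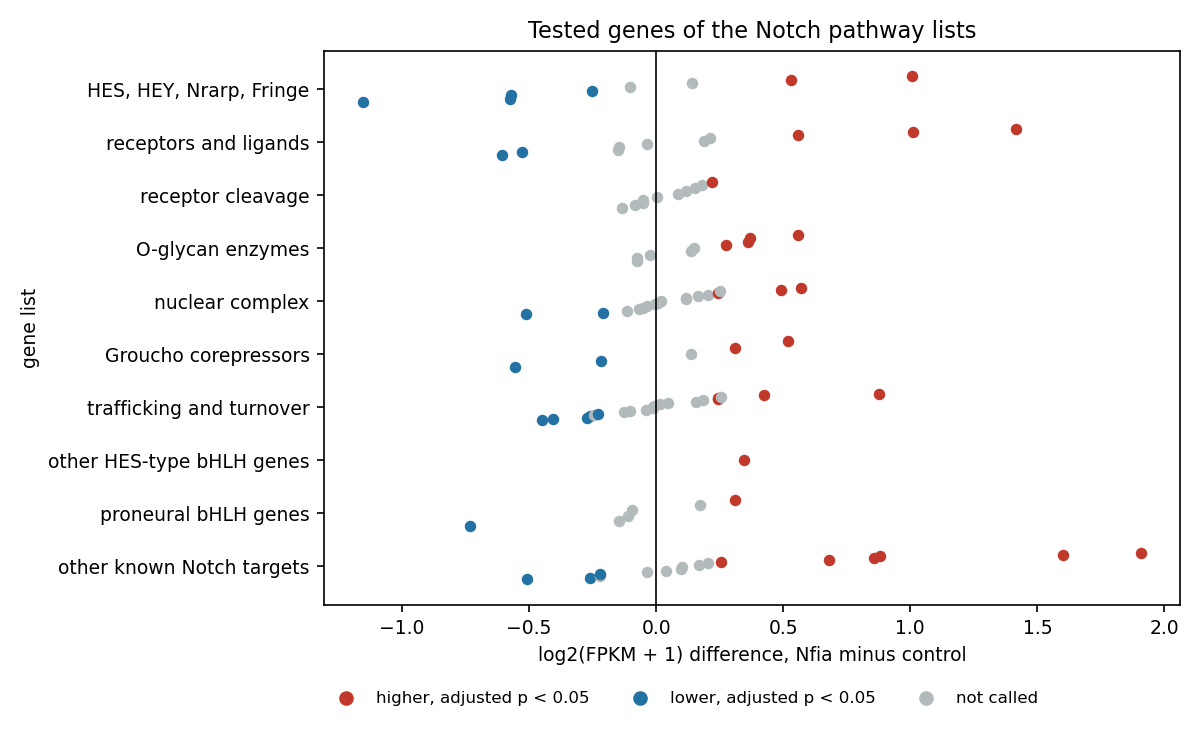
Difference in log2(FPKM + 1), Nfia minus control, of each tested gene in the lists of the Notch pathway, 1 point per gene, red where higher, blue where lower and grey where not called. The top line holds the 8 tested HES, HEY, Nrarp and Fringe genes, which reach from -1.15 to 1.01. In the other lists, Dll4 (1.42), Olig1 (1.60) and Nfia (1.91) lie above that range, and Notch1 (1.01) lies at its upper end.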

How the data were processed

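RNA-seq of 3 Nfia and 3 control libraries was used; per the labels' protocols, poly(A) RNA was made into directional libraries. The deposited values are FPKM, 1 per gene symbol; the unit was read from the values and the tools, since the files have no header. Per the submitters' processing notes, TopHat, Bowtie version 1, SAMtools, Cufflinks, Cuffdiff, MACS version 1.4 and the build mm10 were used; which of them made the FPKM, with what annotation and whether by strand, is not given in the sources used here. FPKM is a share of a library, so a rise of abundant transcripts lowers the others.

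Genes averaging 1 FPKM or more were compared on log2(FPKM + 1) with limma (version 3.58.1, R version 4.3.3). The test was two-sided, with a variance trend, Benjamini-Hochberg adjustment over 12537 genes and a threshold of 0.05. It was tried on simulated data with independent noise of the fitted size, which cannot show how it fares where libraries share a batch. All 10 genes are named; of each list, up to 4 called genes with the smallest adjusted p and every gene a count of 5 or fewer rests on. Ratios between genes used an exact permutation test. The genes and lists were chosen with earlier results of these data known. Kdelc1 and Kdelc2 were matched through RefSeq synonyms, and Tle5 was not used here. Relative depth is the most common ratio of low values to those of control 1. The alternatives were a pseudocount of 0.1, no filter, a mean of at least 5 FPKM, 3 scalings, 3 variance models, a replicate block and leaving out each library. The Flag and IgG ChIP samples were not analysed here. Some genes of the lists are not reported here.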

Additional observations from a re-analysis of the deposited data

How the results depend on the processing

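Over the 16 alternatives no log2 difference of the tested genes changed sign, nor did the 6 ratios within a library over their 7 alternatives. Lfng, Hes1, Nrarp and Mfng passed in all 16, with log2 differences of 0.97 to 1.03, 0.48 to 0.59, -0.61 to -0.55 and -1.35 to -1.05. Hes5 and Hey1 passed in 13 and Hes6 in 0. Leaving out 1 library gave 2 to 4 lower genes among the 10 (2 without Nfia 2 or control 1) and, over all genes, 1290 to 1625 higher and 1251 to 1572 lower, against 2020 and 1898 with all libraries. Over all tested genes, deviations of same-numbered libraries had correlations of 0.0264, -0.00578 and 0.0461, so the numbers were not taken to pair them. Hes1, Hes5, Hes6, Hey1 and Rfng, however, ran in the same order of replicate numbers in both groups, while Lfng, Mfng and Nrarp did not. The sum of the 7 mesenchyme markers was also lowest in replicate 1 of each group. With the replicate block, the SE was 0.062 in place of 0.129 for Hes5 and 0.089 in place of 0.182 for Mfng. For Lfng it stayed at 0.037. In that fit 3 of the 10 genes were higher in place of 2, Rfng being added (log2 difference 0.14, adjusted p = 0.0474), and the call of Sox9 ended (adjusted p = 0.0531). Whether same-numbered libraries share a batch was not tested. Scalings moved the median log2 difference of all genes to between -0.02 and 0.00. Values near 0 FPKM, as of Hey2 and Heyl, rest on few fragments, and the pseudocount of 1 draws their log2 differences towards 0. That neither gene passed therefore does not show equal levels. With no filter, 2 proneural genes were lower in place of 1, so a gene under the filter could be called.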
